A study of Homo sapiens with 4 samples.

Results

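The 36 genes described here encode the mTOR kinase complexes and the machinery that reports nutrients to them. They were taken by symbol from the table of read counts, where each matched 1 of 61533 Ensembl identifiers. RNA was counted in 4 libraries of Caki-1, a human cell line from a renal cell carcinoma. The 2 control libraries (shControl, genotype label WT) carried a lentivirus with a control sequence, and the 2 knockdown libraries (shTFE3, genotype label TFE3-KD) carried one with short hairpin RNA against TFE3, a lysosomal gene activator of the MiT/TFE family. All 4 cultures grew in McCoy's 5A medium with serum, were infected, split into dishes after 24 hours, put under 1 µg/ml puromycin 12 hours later and collected after 3 days of selection. The labels give neither the number of hairpins nor whether replicates were separate infections. Each p-value therefore reflects only how far these libraries spread, in the gene itself and in the other genes from which the test borrows variance. That spread may be technical. The culture was bulk, so fewer cells with an RNA and less of it per cell cannot be told apart.

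mTOR is a serine/threonine kinase that works in a pair of complexes, mTORC1 and mTORC2, which share MLST8 and differ in their scaffold, RPTOR or RICTOR. mTORC1 is switched on at the lysosome: the Ragulator complex, anchored in the lysosomal membrane, holds the Rag GTPases, which recruit mTORC1, and the GTPase RHEB then activates it. The TSC complex turns RHEB off, GATOR1 turns the Rags off, GATOR2 opposes GATOR1, and the sestrins and CASTORs block GATOR2 when leucine or arginine is short. Active mTORC1 in turn phosphorylates TFE3 and keeps it in the cytoplasm.

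TFE3 itself stood at 131 and 128 CPM (counts scaled to a library of 1000000) in the control libraries and at 70.1 and 66.9 CPM in the knockdown libraries, the direction the labels give. Its relative MITF fell too (log2 fold change -0.39, edgeR adjusted p 0.00389), but did not pass without shTFE3 replicate 2 (-0.22, 0.221) or with no filter on low counts (0.303). Library totals lay between 17270180 and 17742519 counts, and a count of 3, the detection floor, was 0.167 to 0.176 CPM, for counting error only. Of the kidney epithelial markers PAX8, KRT8 and KRT18 were abundant (at least 77.7 CPM in every library), EPCAM had at most 1.23 CPM, and PAX2 and CA9 were at 0 counts. KRT18 fell in shTFE3 (log2 fold change -0.28, edgeR adjusted p 0.00191), a call lost without shTFE3 replicate 1 (0.0806), without shTFE3 replicate 2 (0.0679) and with no filter (0.0932). Among the 4 leukocyte, 3 endothelial and 4 fibroblast markers, CD3E and CDH5 were at 0 counts and PTPRC, VWF, COL1A2 and DCN had at most 1 count in a library. CD14 had 2 counts in each control library and 10 and 11 in the knockdown libraries, and the 4 leukocyte markers summed to 0.117 and 0.176 CPM against 0.612 and 0.618 CPM. The endothelial sum was 2.81 to 3.84 CPM over the libraries and the fibroblast sum 19.1 to 19.9 CPM, nearly all from PECAM1, COL1A1 and PDGFRB; the part of these RNAs in the results was not tested.

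TFE3 and its relatives are known to bind the E-box letters CACGTG, and the stretches shown here are those near the starts of Rag, Ragulator and TSC genes that hold them. RefSeq windows on GRCh38.p14 (250 bases before to 50 after a start) were at hand for 30 of the 36 genes, and 5 of these (16.7%) held CACGTG, against 12.3% of the 11269 tested genes with a window. The letters were in 7.26% of all 35116 windows of that length; they read the same on both strands. The longer form TCACGTGA, which contains CACGTG, was in 2 of the 30 (6.67%), RRAGB and TSC2, in 2.19% of the tested genes with a window and in 0.98% of all windows. Each stretch runs 5′ to 3′ on the strand of its gene, with CACGTG in capitals.
RRAGB, chrX:55717619-55717768, plus strand: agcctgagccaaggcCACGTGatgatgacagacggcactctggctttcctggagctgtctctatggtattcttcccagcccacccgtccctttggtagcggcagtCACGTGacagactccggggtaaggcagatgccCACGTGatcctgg
LAMTOR1, chr11:72103427-72103492, minus strand: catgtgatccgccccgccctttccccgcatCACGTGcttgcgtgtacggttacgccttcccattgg
LAMTOR4, chr7:100148874-100148939, plus strand: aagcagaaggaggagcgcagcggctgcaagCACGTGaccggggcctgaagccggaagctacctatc
TSC2, chr16:2047841-2047906, plus strand: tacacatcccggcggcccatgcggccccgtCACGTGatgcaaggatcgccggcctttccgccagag
The RRAGB stretch holds 3 copies, which begin 115 and 25 bases before the start and at base 8 after it. The single copy begins 165 bases before the start of LAMTOR1, 14 before that of LAMTOR4 and 114 before that of TSC2. The fifth gene is NPRL3, with CACGTG from base 26 after its start. Of these 5, RRAGB and LAMTOR1 fell, TSC2 rose, and LAMTOR4 and NPRL3 did not pass the test described next; the match is one of letters, and binding was not analysed here.

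All 36 genes passed the filter on low counts, and 13 of them changed: 6 rose and 7 fell at an adjusted p under 0.05 (quasi-likelihood test of edgeR, Benjamini-Hochberg adjustment over 15950 genes). That is 16.7% up and 19.4% down, where 10.3% of all tested genes rose and 12.9% fell. The genes that rose were MTOR, AKT1S1, TSC2, WDR24, WDR59 and SESN2, and those that fell were TBC1D7, TSC1, MLST8, RRAGB, LAMTOR1, LAMTOR3 and LAMTOR5. The changes were small: the median log2 fold change (shTFE3 over shControl) was 0.014 over the 36 genes and 0.002 over all tested genes. The median absolute value was 0.17 for both. Among the 13 the median absolute value was 0.33, against 0.37 among all called genes. Between the control libraries the 36 genes differed by a median of 0.066 on the log2 scale and between the knockdown libraries by 0.073, while the 4 pairs of a control with a knockdown library had medians of 0.174 to 0.209. The rises numbered 5, 3, 2 and 1 and the falls 4, 6, 2 and 3 without shControl replicate 1, shControl replicate 2, shTFE3 replicate 1 and shTFE3 replicate 2. DESeq2 called 2 rises and 5 falls, and with no filter on low counts 0 rose and 1 fell. Calls over all genes fell in each of these fits, from 3709 in the main fit to 1959 by DESeq2 and 384 with no filter.

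**Figure D1:**
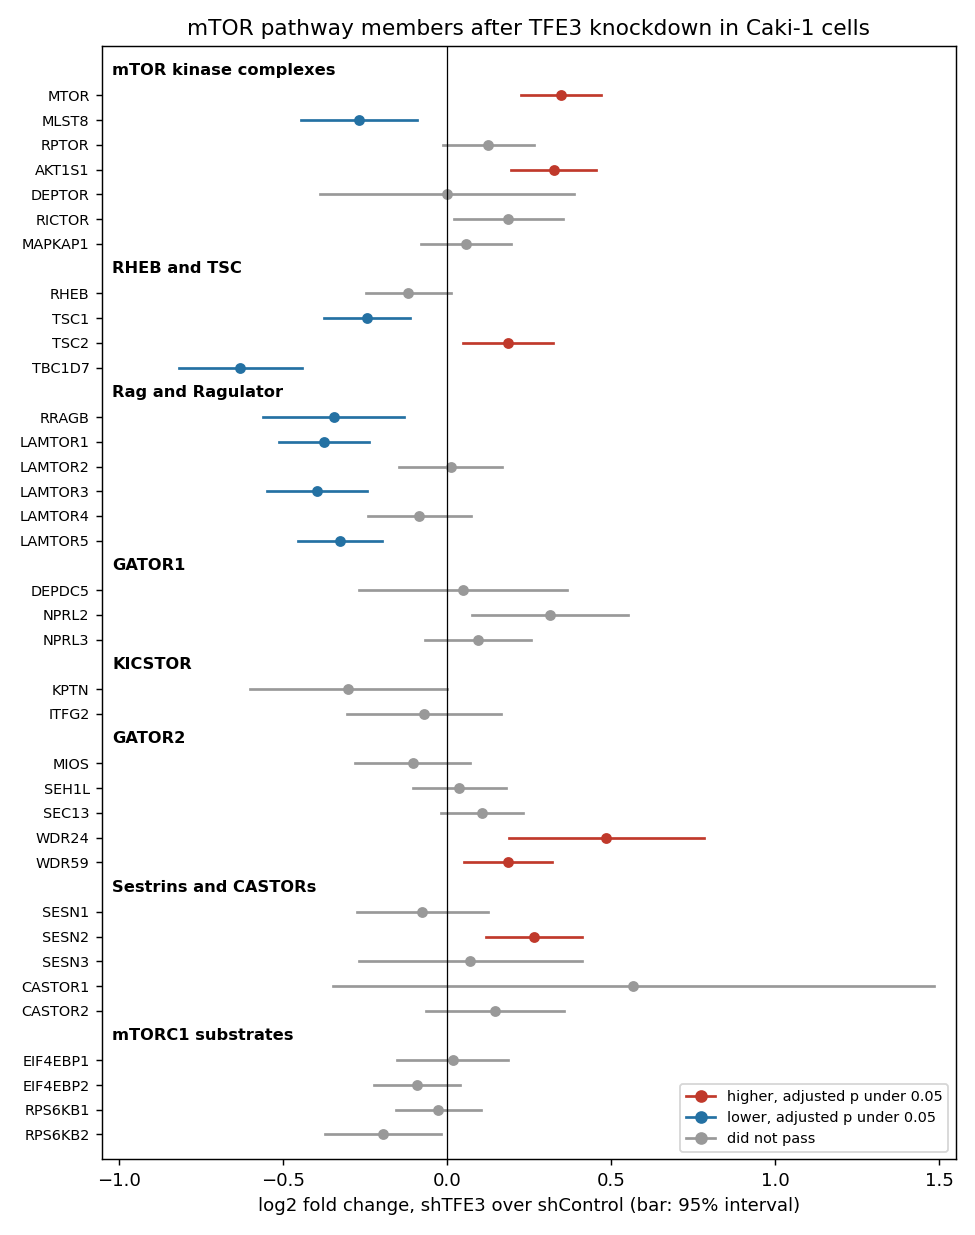
Log2 fold change (shTFE3 over shControl) of the 36 genes by complex, with points for the edgeR estimate and bars for its 95% interval; red and blue mark genes that rose or fell at an adjusted p under 0.05. The fallen genes include 4 of the 6 Rag and Ragulator genes, TBC1D7 has the lowest value at -0.63, and CASTOR1 has the widest interval.

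**Figure D2:**
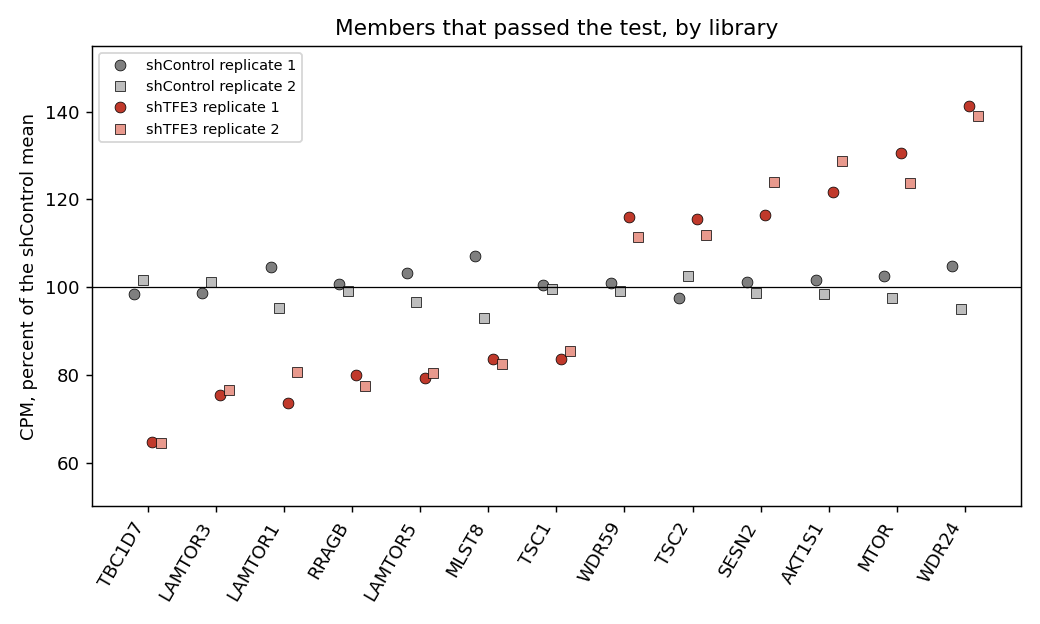
Level of the 13 called genes in each of the 4 libraries, as percent of the shControl mean on a linear axis; circles are replicate 1 and squares replicate 2. TBC1D7 sits at 64.6% and WDR24 at 140% of the control mean.

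In the kinase complexes the kinase gene and an inhibitor of mTORC1 rose, and the subunit common to both complexes fell. MTOR (ENSG00000198793, chromosome 1, 11106535 to 11262507, minus strand, GRCh38) was at 136 and 129 CPM in shControl and at 173 and 164 CPM in shTFE3. Both knockdown libraries lay above both controls, by 28.2 CPM at the nearest. The mean rose to 127% of control, a log2 fold change of 0.35 (edgeR, SE 0.059, adjusted p 8.77e-05).

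AKT1S1, which encodes PRAS40, an inhibitory subunit that mTORC1 itself phosphorylates, was at 88.9 and 86.1 CPM in shControl and 107 and 113 CPM in shTFE3. The arms were apart by 17.6 CPM, more than the distance between the replicates of either arm. Its log2 fold change was 0.33 (edgeR, SE 0.062, adjusted p 0.000344). MLST8, which stabilizes the kinase domain, had 36.3 and 31.5 CPM in shControl against 28.4 and 28.0 CPM in shTFE3. Here shControl replicate 2 lay close to the knockdown libraries, and the log2 fold change was -0.27 (edgeR, SE 0.086, adjusted p 0.0255). Exons of AKT1S1 overlap those of other genes over 8.75% of their length, and those of MLST8 overlap BRICD5 over 3.79%; the strand setting of the counting is not given in the sources used here.

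The scaffolds and the other subunits did not pass. RPTOR, the mTORC1 scaffold, had a log2 fold change of 0.13 (95% interval -0.012 to 0.26), and RICTOR, the mTORC2 scaffold, had 0.19 (0.023 to 0.35, edgeR adjusted p 0.0934). MAPKAP1, the mTORC2 subunit SIN1, had 0.058 (-0.078 to 0.19). DEPTOR, an inhibitor of both complexes, was scarce, at 4.16 and 6.46 CPM in shControl and 5.84 and 4.78 CPM in shTFE3, and its interval of -0.39 to 0.39 left a change of that size undetectable. In these 4 genes the arms overlapped. Without shControl replicate 1 RPTOR passed (0.24, edgeR adjusted p 0.04) and MLST8 did not (-0.16, 0.368); MLST8 also failed without shTFE3 replicate 1 (0.19) and without shTFE3 replicate 2 (0.225), by DESeq2 (0.181) and with library totals as the only scaling (0.0549). RICTOR passed without shControl replicate 2 (0.26, edgeR adjusted p 0.0489) and with library totals alone (0.0475), AKT1S1 did not pass without shTFE3 replicate 2 (0.28, 0.0607), and with no filter on low counts MTOR (0.0761), AKT1S1 (0.0847) and MLST8 (0.26) did not pass.

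The TSC complex, the brake on RHEB, changed unequally: TBC1D7 and TSC1 fell and TSC2 rose. TBC1D7 (ENSG00000145979, chromosome 6, 13266542 to 13328583, minus strand), the smallest subunit, was at 27.1 and 27.9 CPM in shControl and 17.8 and 17.8 CPM in shTFE3. The knockdown libraries were nearly equal and lay 9.28 CPM below the lower control. Its level was 64.6% of control, a log2 fold change of -0.63 (edgeR, SE 0.091, adjusted p 1.08e-05). It was also the only one of the 36 genes in the authors' deposited table of 546 changed genes, whose smallest absolute log2 fold change is 0.59; the authors' deposited table gives TBC1D7 a log2 fold change of -0.63, a standard error of 0.14 and an adjusted p of 8.07e-05. Its exons overlap those of PHACTR1 and AL008729.1 over 15.3% of their length.

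TSC1, hamartin, which stabilizes TSC2, was at 85.8 and 84.9 CPM in shControl and 71.3 and 73.0 CPM in shTFE3. The arms were apart by 11.9 CPM, and the log2 fold change was -0.24 (edgeR, SE 0.064, adjusted p 0.00637). TSC2, tuberin, the subunit that acts on RHEB, was at 62.0 and 65.2 CPM in shControl and 73.5 and 71.2 CPM in shTFE3. That gap was 6.06 CPM, and the log2 fold change of 0.19 (SE 0.067) had an edgeR adjusted p of 0.0451, just inside the threshold. RHEB, which per kilobase of exon was the highest of the 36 genes in shControl with EIF4EBP1 next (64.3 and 63.9 CPM per kb), was at 224 and 231 CPM in shControl and 194 and 225 CPM in shTFE3, with arms that overlapped and an interval of -0.25 to 0.012.

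Per kilobase of exon, TBC1D7 in shControl made up 28.9% and 29.2% of the summed level of the 3 genes and TSC2 28.0% and 28.8%. In shTFE3 the share of TBC1D7 was 21.6% in both libraries and that of TSC2 37.6% and 36.6%, while TSC1 had 43.2% and 41.9% in shControl and 40.8% and 41.8% in shTFE3. With 2 libraries an arm no exact test of a share can pass, so these are values only. Exon length merges all annotated exons of a gene (19626 bases for TSC2, 17600 for TSC1 and 8300 for TBC1D7). It may exceed the length of the RNA made in these cells. Shares and ranks between genes depend on it, and the log2 fold change of a gene does not. TBC1D7 passed with every one of the 12 alternatives. TSC1 did not pass without shControl replicate 1 (-0.24, edgeR adjusted p 0.0558), without shTFE3 replicate 1 (-0.22, 0.088) or without shTFE3 replicate 2 (-0.26, 0.0734), or with no filter (0.0858). TSC2 did not pass with any 1 library left out, with log2 fold changes of 0.15, 0.22, 0.16 and 0.21 and edgeR adjusted p of 0.317, 0.102, 0.194 and 0.138 without shControl replicate 1, shControl replicate 2, shTFE3 replicate 1 and shTFE3 replicate 2. It also failed by DESeq2 (0.191), with no filter (0.203), with upper-quartile factors (0.0505) and with the replicate number as a block (0.0719).

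**Figure D3:**
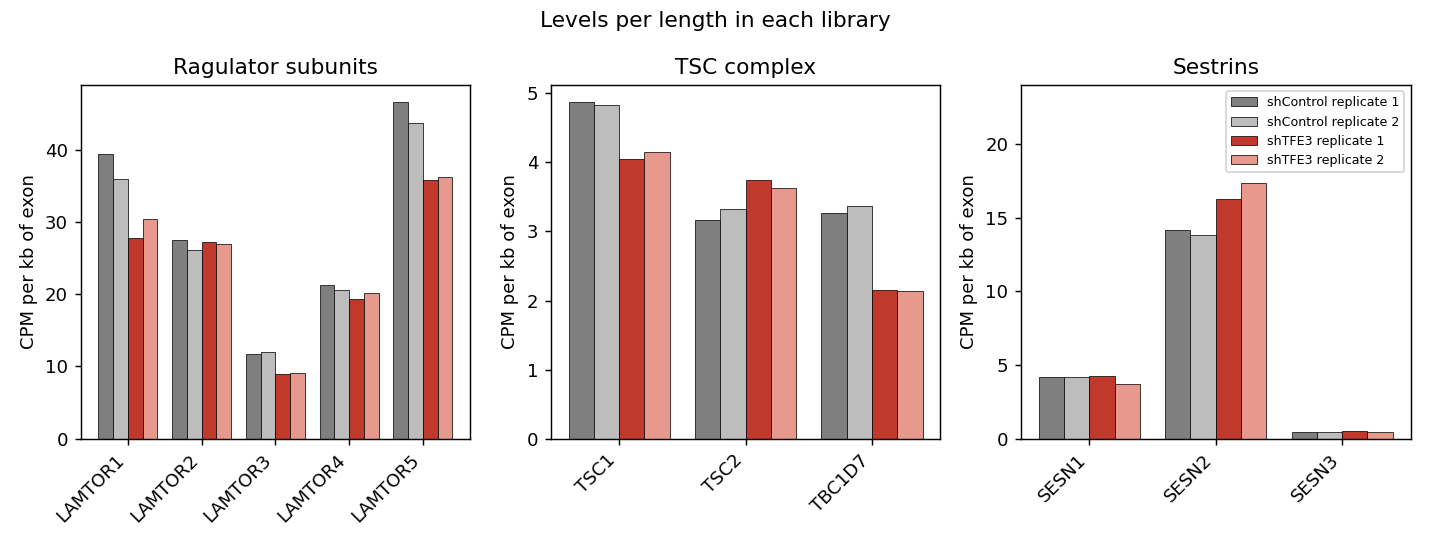
Level of each Ragulator, TSC and sestrin gene in the 4 libraries as CPM per kilobase of exon (bars from 0, 1 per library). In Ragulator the knockdown bars are lower for LAMTOR1, LAMTOR3 and LAMTOR5 and about level for LAMTOR2; TBC1D7 is lower, TSC2 higher, and SESN2 makes up most of the sestrin level.

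Of RRAGB and the 5 Ragulator genes, 4 fell and 0 rose, where 12.9% of all tested genes fell and 10.3% rose; their median was -0.34 on the log2 scale. LAMTOR1 (ENSG00000149357, chromosome 11, 72085895 to 72103387, minus strand) encodes the lipid-anchored subunit that wraps around the others. It was at 109.7 and 99.9 CPM in shControl and 77.2 and 84.5 CPM in shTFE3, 15.4 CPM apart at the nearest. The log2 fold change was -0.37 (edgeR, SE 0.067, adjusted p 0.000166).

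The other subunits form a pair of heterodimers, LAMTOR2 with LAMTOR3 and LAMTOR4 with LAMTOR5, and in each pair 1 gene fell and its partner did not pass. LAMTOR3 (ENSG00000109270, chromosome 4, 99878336 to 99894490, minus strand) had 49.8 and 51.0 CPM in shControl against 38.0 and 38.6 CPM in shTFE3. Replicates of an arm differed little beside the gap of 11.2 CPM, and the log2 fold change was -0.40 (edgeR, SE 0.074, adjusted p 0.000246). Its partner LAMTOR2 was at 39.5 and 37.6 CPM in shControl and 39.1 and 38.7 CPM in shTFE3. The arms overlapped, and the 95% interval of LAMTOR2, -0.15 to 0.17, did not reach that of LAMTOR3, -0.55 to -0.24; the difference between the 2 genes was not itself tested.

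LAMTOR5 (ENSG00000134248, chromosome 1, 110401249 to 110407942, minus strand) was at 111 and 104 CPM in shControl and 85.5 and 86.6 CPM in shTFE3. All of the knockdown values lay below the controls, and the log2 fold change was -0.33 (edgeR, SE 0.063, adjusted p 0.00036). LAMTOR4 was at 41.2 and 40.0 CPM in shControl and 37.5 and 39.1 CPM in shTFE3, close but not overlapping. Its log2 fold change of -0.084 had an interval of -0.24 to 0.073, beside -0.45 to -0.20 for LAMTOR5; the difference within this pair was not tested either. Exons of LAMTOR5 overlap LAMTOR5-AS1 over 17.5% of their length and those of LAMTOR4 overlap C7orf43 over 18.4%, both on the opposite strand.

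RRAGB, a Rag GTPase that binds RPTOR and is close in sequence to RRAGA, was at 17.1 and 16.8 CPM in shControl and 13.6 and 13.2 CPM in shTFE3. The gap was 3.27 CPM and the log2 fold change -0.35 (edgeR, SE 0.104, adjusted p 0.0171). RRAGA, which is more abundant, was at 95.3 and 91.0 CPM in shControl and 100 and 98.3 CPM in shTFE3, a log2 fold change of 0.09 (edgeR adjusted p 0.323). How reads that match both copies were counted is not known here, so their separate levels are uncertain to that extent. The summed level of the 5 LAMTOR genes per kilobase was 147 and 139 CPM in shControl and 119 and 123 CPM in shTFE3, in the order LAMTOR5, LAMTOR1, LAMTOR2, LAMTOR4 and LAMTOR3 by their mean in both arms.

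LAMTOR3 passed with each library left out. LAMTOR1 did not pass without shTFE3 replicate 1 (-0.31, edgeR adjusted p 0.074), nor did LAMTOR5 (-0.31, 0.0543), which also failed without shTFE3 replicate 2 (-0.34, 0.0585). RRAGB did not pass with any 1 library left out, with values of -0.37 to -0.32 and adjusted p of 0.0648 to 0.126, or by DESeq2 (0.198). Without the filter on low counts none of the 4 passed (edgeR adjusted p 0.0557 for LAMTOR3, 0.0793 for LAMTOR5, 0.103 for RRAGB and 0.121 for LAMTOR1).

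In the GATOR arm, which passes amino acid signals to the Rags, a pair of GATOR2 genes rose and no gene of GATOR1 or KICSTOR passed. Of all tested genes 10.3% rose and 12.9% fell. WDR24 (ENSG00000127580, chromosome 16, 684622 to 690444, minus strand), a GATOR2 subunit with a RING domain, was at 6.16 and 5.58 CPM in shControl and 8.29 and 8.15 CPM in shTFE3. These are 95 to 149 counts a library, with the arms apart by 1.99 CPM. The log2 fold change of 0.49 (edgeR, SE 0.144, adjusted p 0.0151) was the highest among the called genes, and 35.7% of its exon length overlaps Z92544.2 on the opposite strand. WDR59, another subunit, was at 71.1 and 69.9 CPM in shControl and 81.7 and 78.5 CPM in shTFE3, a log2 fold change of 0.19 (edgeR, SE 0.065, adjusted p 0.039). The arms of WDR59 were apart by 7.47 CPM. WDR59 did not pass with any 1 library left out (0.16 to 0.21, edgeR adjusted p 0.108 to 0.222), with the replicate block (0.0659), by DESeq2 (0.165) or with no filter (0.176). WDR24 did not pass without shControl replicate 2 (0.41, 0.142), shTFE3 replicate 1 (0.48, 0.107) or shTFE3 replicate 2 (0.50, 0.107), by DESeq2 (0.222) or with no filter (0.121).

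The other GATOR2 genes did not pass, with intervals of -0.28 to 0.072 for MIOS, -0.10 to 0.18 for SEH1L and -0.018 to 0.23 for SEC13; the last 2 genes also serve the nuclear pore, and SEC13 the COPII coat. In GATOR1 the catalytic subunit NPRL2 was at 11.1 and 10.3 CPM in shControl and 13.6 and 13.1 CPM in shTFE3. Its arms did not overlap, and the log2 fold change of 0.31 (SE 0.115) had an edgeR adjusted p of 0.0513, just outside the threshold. It passed with library totals as the only scaling (0.35, 0.0292) and with at least 50 counts in 2 libraries (0.32, 0.0407). NPRL3 had an interval of -0.066 to 0.26 and DEPDC5 of -0.27 to 0.37. DEPDC5 was the lowest gene per kilobase after CASTOR1, at 0.396 CPM per kb in shControl. Of the KICSTOR genes, which hold GATOR1 at the lysosome, KPTN was at 7.86 and 7.16 CPM in shControl and 6.23 and 5.96 CPM in shTFE3 (log2 fold change -0.30, edgeR adjusted p 0.145), and ITFG2, whose exons overlap FOXM1 and 3 other genes, had an interval of -0.30 to 0.17.

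Among the amino acid sensors SESN2 alone passed, where 10.3% of all tested genes rose and 12.9% fell. SESN2 (ENSG00000130766, chromosome 1, 28259527 to 28282491, plus strand), a leucine-binding sestrin and a stress-induced gene, was at 48.9 and 47.7 CPM in shControl and 56.3 and 59.9 CPM in shTFE3. Both knockdown libraries lay above the controls, by 7.37 CPM at the nearest, and the log2 fold change was 0.27 (edgeR, SE 0.071, adjusted p 0.00736). SESN1, a p53 target, was at 21.3 and 21.6 CPM in shControl and 21.8 and 18.9 CPM in shTFE3, with an interval of -0.27 to 0.12. SESN3 was scarce, at 4.69 to 5.23 CPM in all 4 libraries. Per kilobase SESN2 made up 75.4% and 74.6% of the sestrin level in shControl and 77.4% and 80.6% in shTFE3. SESN2 did not pass without shControl replicate 2 (0.25, edgeR adjusted p 0.0762), shTFE3 replicate 1 (0.31, 0.0528) or shTFE3 replicate 2 (0.22, 0.124), by DESeq2 (0.0605) or with no filter (0.136).

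The arginine sensor CASTOR1 had 8 counts in each control library and 12 and 13 in the knockdown libraries, too few to tell a change, with an interval of -0.35 to 1.48. Its exons overlap AC004997.1 over 46.0% of their length. CASTOR2 was at 15.7 and 15.7 CPM in shControl and 18.1 and 16.6 CPM in shTFE3, an interval of -0.065 to 0.36. Per kilobase CASTOR2 made up 97.9% to 98.5% of the CASTOR level in each library.

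Of 10 p53 targets listed beside the sestrins 7 rose and 1 fell, where 10.3% of all tested genes rose and 12.9% fell. The 4 with the smallest p were the cell cycle inhibitor CDKN1A (log2 fold change 0.70), the DNA repair gene DDB2 (0.71), BTG2 (0.63) and MDM2, the ubiquitin ligase of p53 (0.34). Of 10 ATF4 targets, SESN2 among them, 4 rose and 1 fell, against the same 10.3% and 12.9%: the serine synthesis genes PHGDH (0.36) and PSAT1 (0.27) rose beside SESN2, and VLDLR fell (-0.42). The p53 target that fell, RRM2B (-0.21, edgeR adjusted p 0.0252), and the remaining ATF4 target that rose, CHAC1 (0.56, 0.0486), were named after their values were seen. The p53 rises numbered 3 without shTFE3 replicate 1 and 6 or 7 without another library, and the ATF4 rises numbered 3 without either control library, 2 without shTFE3 replicate 1 and 1 without shTFE3 replicate 2. RRM2B passed only without shControl replicate 1 among the 4 fits with a library left out, and CHAC1 only without shControl replicate 2. DESeq2 called 6 p53 rises and 2 ATF4 rises. Without shTFE3 replicate 1 MDM2 did not pass (0.27, edgeR adjusted p 0.0645), nor did PHGDH without shTFE3 replicate 2 (0.31, 0.0598). With no filter on low counts DDB2 (0.0673), BTG2 (0.0634), MDM2 (0.131), PHGDH (0.084), PSAT1 (0.0625) and VLDLR (0.0815) did not pass. Their part in the level of SESN2 was not tested.

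None of the 4 substrate genes of mTORC1 passed, where 10.3% of all tested genes rose and 12.9% fell. The translation repressor EIF4EBP1 was at 69.8 and 67.3 CPM in shControl and 61.3 and 77.5 CPM in shTFE3. The knockdown libraries lay on either side of the controls, and the interval was -0.15 to 0.19. EIF4EBP2, its paralog, was at 126 and 124 CPM in shControl and 124 and 110 CPM in shTFE3, an interval of -0.22 to 0.04. Per kilobase EIF4EBP1 made up 78.9% and 78.6% of the pair in shControl and 76.9% and 82.6% in shTFE3. The S6 kinase RPS6KB1 was at 98.1 and 98.8 CPM in shControl and 100.1 and 93.3 CPM in shTFE3, an interval of -0.15 to 0.10. RPS6KB2 was at 27.3 and 28.8 CPM in shControl and 24.1 and 24.8 CPM in shTFE3, arms that did not overlap. Its log2 fold change of -0.20 had an interval of -0.37 to -0.017, the widest of the 4, and did not pass (edgeR adjusted p 0.108). Of the 23 genes that did not pass, 14 had a 95% interval within 0.32 either way on the log2 scale, and 20 within 0.5.

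A list of 32 other genes of the pathway had 31 tested, of which 3 rose (9.68%, beside 10.3% of all tested genes) and 8 fell (25.8%, beside 12.9%), with a median log2 fold change of -0.02; POLDIP3 had 2 counts in all and was not tested. The Rag GTPase partners and the folliculin complex held 5 of the 8 falls: FLCN (-0.63), RRAGC (-0.62), RRAGD (-0.55), FNIP2 (-0.56) and FNIP1 (-0.35), of 8 genes tested in that group. FLCN, RRAGC, RRAGD and FNIP2 had the smallest p of the list, and the others are named after their values were seen. The other falls were PRR5L (-1.14), an mTORC2-associated protein at 2.81 and 2.88 CPM in shControl and 1.28 and 1.29 CPM in shTFE3, TELO2 (-0.34), which assembles kinases of the mTOR family, and GRB10 (-0.31), an adaptor that mTORC1 phosphorylates. The rises included DDIT4L (0.51), an inhibitor of mTORC1 signalling, and EIF4B (0.14), a translation factor downstream of S6 kinase.

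Among these genes, TELO2 (-0.24, edgeR adjusted p 0.133), GRB10 (-0.25, 0.0771) and DDIT4L (0.32, 0.191) did not pass without shTFE3 replicate 1, nor FNIP1 (-0.33, 0.0767) and FNIP2 (-0.55, 0.0508) without shTFE3 replicate 2. PRR5L did not pass without shTFE3 replicate 1 (-1.13, 0.0532) or shTFE3 replicate 2 (-1.15, 0.0613), and EIF4B did not pass with any 1 library left out (0.12 to 0.17, 0.0817 to 0.306). By DESeq2 PRR5L (0.0842) and DDIT4L (0.0839) did not pass. EIF4B also failed with the replicate block (0.0929). With no filter on low counts FLCN alone of the 11 passed (0.0489), and RRAGC (0.0727), RRAGD (0.0641) and FNIP2 (0.0596) did not. The list's rises numbered 0 to 2 and its falls 5 to 8 with 1 library left out.

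**Figure D4:**
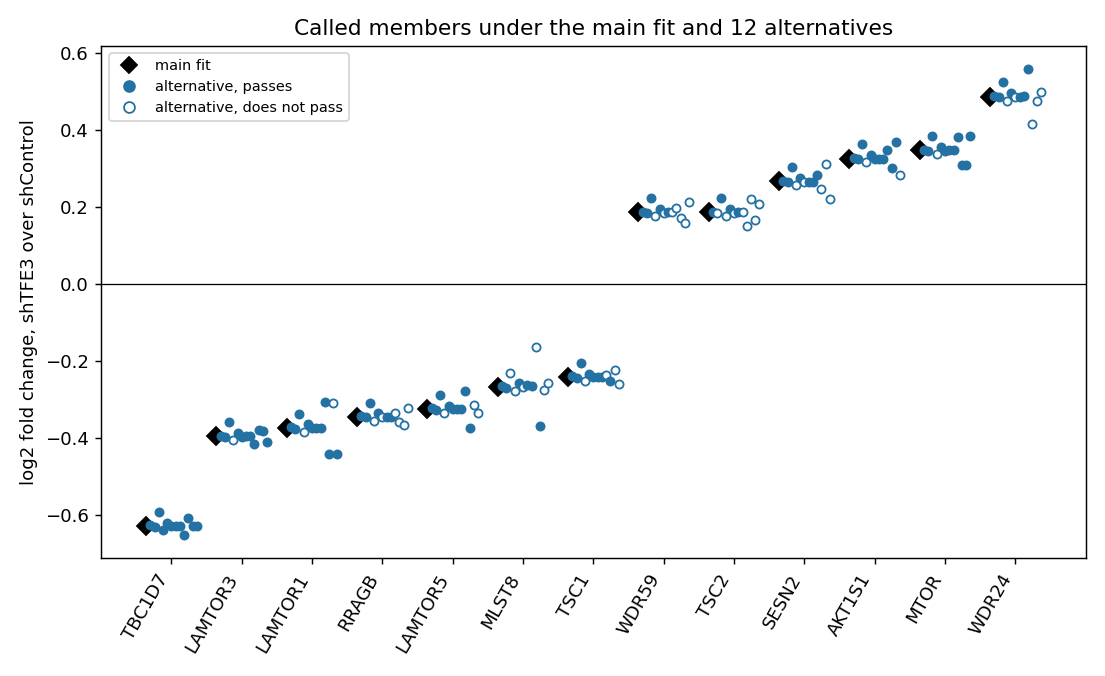
Log2 fold change of the 13 called genes under the main fit (black diamond) and 12 alternatives (circles, filled where the adjusted p is under 0.05). No gene changed sign, and TBC1D7 alone is filled throughout.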

How the data were processed

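The deposited table holds whole-number counts of reads per Ensembl gene; the authors trimmed with Trim Galore, aligned with STAR to hg38, counted with featureCounts and tested with DESeq2, per the submitters' processing notes. The sources used here give no versions, annotation, strand setting or rule for reads shared by genes. The authors' deposited table of changed genes holds a mean normalized count (a signal), log2 fold changes, a test score and p-values.

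Counts were scaled by TMM, filtered with filterByExpr, which kept 15950 genes and 99.8% of counts, and tested with edgeR 4.0.16 (quasi-likelihood, 2 against 2 libraries, no covariates; R 4.3.3), with Benjamini-Hochberg adjustment over all of them; the standard error is the absolute log2 fold change divided by the square root of F. CPM uses TMM-scaled totals, and levels between genes use GENCODE 29 exon length. That length merges the exons of all annotated transcripts, expressed or not, so every rank and share per kilobase depends on the annotation. The code was tested on simulated data. The alternatives were 3 other scalings, 2 other filters, DESeq2 1.42.0, limma-voom 3.58.1, a replicate block and each library left out.

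The 36 genes and the lists were chosen with earlier results of these data known. All genes that passed are named, those that did not where they complete a complex, and up to 4 genes with the smallest p of each other list. Promoter windows were matched by symbol. Gene positions are GENCODE 29 on GRCh38. A few genes of the lists are counted but not reported by name here.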

Additional observations from a re-analysis of the deposited data

How the results depend on the processing

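The 13 called genes kept their sign in all 12 alternatives; TBC1D7 kept the call in all 12, and MTOR and LAMTOR3 in all but the fit with no filter on low counts. The 36 genes gave 8 rises with library totals alone, where 55.8% of all calls were rises against 44.5% with TMM, and 0 rises with no filter, 2 by DESeq2, 4 with the replicate block, and 1 to 5 with 1 library left out. Their falls numbered 1 with no filter, 5 by DESeq2 and 2 to 6 with 1 library left out. The other pathway genes gave 0 rises and 1 fall with no filter, 2 rises by DESeq2 and with the block, 4 with library totals alone or at least 50 counts in 2 libraries, and 0 to 2 rises and 5 to 8 falls with 1 library left out. All genes together gave 3709 calls, 1959 by DESeq2, 384 with no filter and 1043 to 2514 with 1 library left out; the cause of the loss with no filter was not tested. A fit without 1 library leaves an arm with a lone library, which is assumed to vary like the pair. These fits also differ in their prior degrees of freedom, the weight given to the variance of other genes. Without shControl replicate 1 this weight stood at its cap, which the number of genes tested (16604) sets, and is not an estimate. It was 452 without shControl replicate 2, 4.25 and 3.98 without shTFE3 replicates 1 and 2, and 22.4 in the main fit. Calls lost therefore cannot be compared between the libraries left out, and the part of this weight in them was not tested.

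Whether same-numbered libraries were prepared together is not known here. Their deviations from the arm means correlated at -0.029 over 15950 genes, and with 2 libraries an arm this value cannot settle it. With the replicate number as a block all genes gave 3558 calls and the 36 genes 4 rises and 7 falls. That fit had 1 residual degree of freedom, and its prior degrees of freedom stood at the cap set by the 15950 genes. The main fit had 22.4, so the calls of these fits are not on equal terms.

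Reversals were limited to genes that did not pass. DEPTOR had -0.0014 with upper-quartile factors, -0.0094 with no filter and -0.00039 by DESeq2, and RPS6KB1 had 0.011 with library totals alone. The log2 fold change also took both signs when 1 library was left out, ranging from -0.28 to 0.35 for DEPTOR, where it was -0.28 and -0.15 without shControl replicate 1 and shTFE3 replicate 1. Without shControl replicate 2 it turned for LAMTOR2 (range -0.026 to 0.045), DEPDC5 (-0.058) and ITFG2 (range -0.17 to 0.032), SEH1L (-0.018) and EIF4EBP1 (-0.011). Without shTFE3 replicate 2 it turned for MAPKAP1 (range -0.035 to 0.15), DEPDC5 (range -0.13 to 0.21), SEH1L (range -0.036 to 0.11), SESN1 (range -0.18 to 0.021), EIF4EBP1 (range -0.16 to 0.18) and RPS6KB1 (range -0.076 to 0.022). The share differences (shTFE3 less shControl, percentage points) ranged with 1 library left out from -1.83 to 3.87 for EIF4EBP1, 2.38 to 5.58 for SESN2, 1.30 to 3.18 for RPS6KB1, -3.10 to -1.70 for LAMTOR1 and -7.66 to -7.30 for TBC1D7.

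Depth limits CASTOR1, DEPTOR, SESN3 and WDR24, the 4 genes with fewer than 100 counts in a library.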
